A study of Mus musculus with 16 samples.

Results

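The HoxD cluster genes were followed in RNA-seq libraries of sorted mouse neocortical cells with and without Eed, whose product PRC2 (Polycomb repressive complex 2) needs for its activity. The members were the 9 protein-coding Hoxd genes (Hoxd1, Hoxd3, Hoxd4, Hoxd8, Hoxd9, Hoxd10, Hoxd11, Hoxd12 and Hoxd13) of 53379 genes in the count files, chosen by mouse gene symbol. All 9 symbols were found, and 8 of the 9 had at least 1 read in the 15 libraries with a group. Hoxd12 had none.

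Hox genes encode homeodomain transcription factors that give cells along the body axis their positional identity, and mammals carry them in 4 clusters (HoxA to HoxD). Genes at the 3′ end of a cluster are used in anterior regions, and those toward the 5′ end (Hoxd9 to Hoxd13) in the trunk, limbs and genital region. The cerebral cortex lies anterior to the Hox expression domains. Hox clusters are textbook PRC2 targets: PRC2 methylates lysine-27 of histone H3 over silent clusters.

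Cells were taken at postnatal day 4 from mice carrying mosaic analysis with double markers (MADM) cassettes on chromosome 7, which label sparse cells by recombination between homologous chromosomes, driven by Emx1-cre. All groups also carried XGFAP-lacZ, a lacZ transgene under the human GFAP promoter, and all sorted green cells, of either genotype, were paternally disomic for chromosome 7. Green cells were Eed+/+ in control-MADM mice (labelled wt) and Eed-/- in Eed-MADM mice (labelled mosaic), where the mutant cells lay among mostly heterozygous tissue. GFP+/lacZ+ cells were collected as astrocytes (5 Eed+/+ and 5 Eed-/- libraries) and GFP+/lacZ- cells as neurons (2 Eed+/+ and 3 Eed-/- libraries), with individual animals as replicates. One of the 16 libraries had conflicting cell type labels and entered no comparison.

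Depth differed between libraries. Reads assigned to genes ranged from 211736 to 3178529 over the 15 libraries, and 10 of the 15 had both 1000000 uniquely aligned reads and 60% uniquely aligned. Outside these limits were Eed+/+ astrocyte replicate 3, Eed-/- astrocyte replicates 1, 3 and 4, and Eed+/+ neuron replicate 2. The 10 astrocyte markers summed to between 4258 and 29885 CPM (counts per 1000000 gene reads) in Eed+/+ astrocytes and to 7183 and 10910 CPM in the 2 Eed+/+ neuron libraries. Eed+/+ astrocyte replicates 1, 2, 4 and 5 were at 16824 CPM or more, above both neuron libraries, and replicate 3, outside the limits, was the one below them. The 12 neuron markers summed to between 447 and 2792 CPM in Eed+/+ astrocytes and to 1300 and 1575 CPM in Eed+/+ neurons. The neuron markers overlapped between the gates, and all 10 astrocyte markers had reads in both Eed+/+ neuron libraries. Astrocytes and neurons name the sorting gate here.

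The cluster lay on chromosome 2 (GRCm38), from 74668310 at the start of Hoxd13 to 74765142 at the end of Hoxd1, a span of 96.8 kb, with all 9 genes on the plus strand. Reads centred on Hoxd9 and Hoxd8, neighbours in the middle of the cluster, while Hoxd12 had no read in any library. The 250 bases upstream of the RefSeq start of these 3 genes are shown because they mark the 2 members with the most reads and the member with none. They are given 5′ to 3′ from GRCm38.p6, with each CG dinucleotide in capitals.
Hoxd9 (chr2:74697513-74697762, plus strand): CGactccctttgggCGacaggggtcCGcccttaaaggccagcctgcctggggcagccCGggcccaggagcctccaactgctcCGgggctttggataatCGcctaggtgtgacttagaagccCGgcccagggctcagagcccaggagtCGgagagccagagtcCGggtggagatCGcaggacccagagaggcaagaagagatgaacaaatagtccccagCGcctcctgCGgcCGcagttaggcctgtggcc
Hoxd8 (chr2:74704365-74704614, plus strand): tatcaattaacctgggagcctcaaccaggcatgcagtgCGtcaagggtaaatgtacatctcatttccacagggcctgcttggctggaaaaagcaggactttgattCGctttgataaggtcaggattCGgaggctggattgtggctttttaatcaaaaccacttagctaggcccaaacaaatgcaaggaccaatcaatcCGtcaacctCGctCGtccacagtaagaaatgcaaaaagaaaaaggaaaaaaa
Hoxd12 (chr2:74674763-74675012, plus strand): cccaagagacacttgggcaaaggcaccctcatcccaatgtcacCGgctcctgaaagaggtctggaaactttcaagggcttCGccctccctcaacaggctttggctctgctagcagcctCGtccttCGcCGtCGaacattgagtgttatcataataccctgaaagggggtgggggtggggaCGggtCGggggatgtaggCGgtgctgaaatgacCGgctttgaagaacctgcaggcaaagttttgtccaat
These stretches held 13, 6 and 10 CG dinucleotides for Hoxd9, Hoxd8 and Hoxd12. CpG-rich promoters are the usual seat of PRC2 in mammals.

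In windows of 300 bases (250 before and 50 after the RefSeq start), the 10 HoxD promoters of the 9 genes had a median of 20 CG, from 4 to 37, against a median of 7 over all 32851 promoters. CG reads the same on both strands. Hoxd9 had 20 CG, a number reached by 26.5% of all promoters, Hoxd12 had 13 (reached by 37.9%) and Hoxd8 had 6 (reached by 56.4%). The CG number and the number of reads did not follow one order among these 3 genes: Hoxd12, with no read, stood between the 2 genes with the most. Hoxd13 had the most CG of the cluster (37, reached by 5.58% of promoters), and Hoxd4 and the upstream start of Hoxd11 the fewest (4 each).

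**Figure D1:**
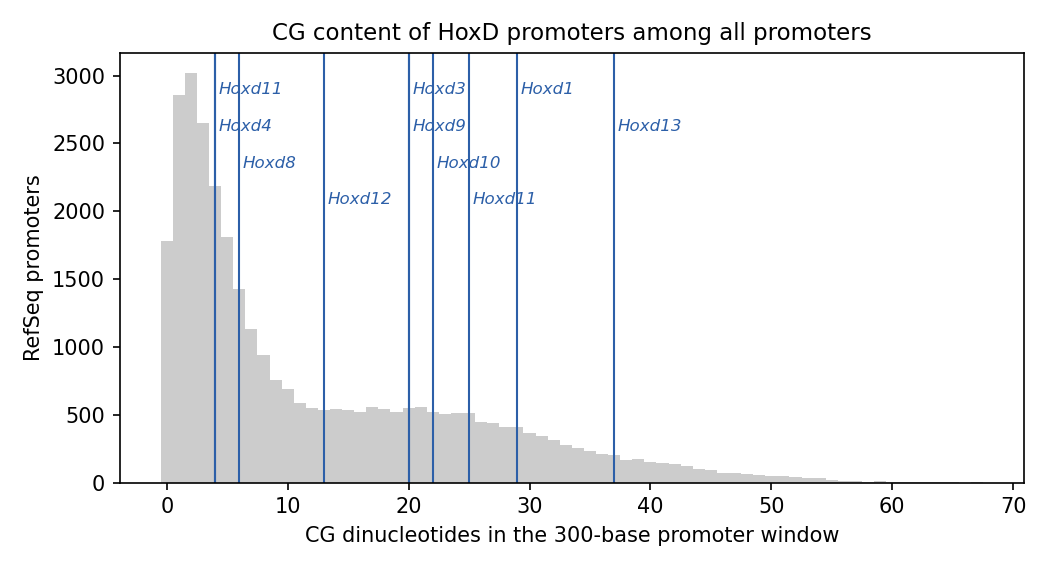
Histogram of the number of CG dinucleotides (x axis) in the 300-base windows of all 32851 RefSeq promoters (y axis, number of promoters), with a vertical line for each HoxD promoter. The HoxD lines spread from 4 to 37 CG, with Hoxd8 at 6, Hoxd12 at 13 and Hoxd9 at 20, and Hoxd11 has 2 starts.

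Reads from the cluster were seen in Eed-/- libraries and in no Eed+/+ library. All 7 Eed+/+ libraries, with 11911156 gene reads, had 0 HoxD reads, and the 8 Eed-/- libraries had 125. In Eed-/- neurons the summed HoxD reads were 22, 46 and 32 in replicates 1, 2 and 3. In Eed-/- astrocytes they were 5 in replicate 2, 20 in replicate 5, and 0 in replicates 1, 3 and 4. Every Eed-/- neuron library therefore lay above both Eed+/+ neuron libraries, whereas 3 of the 5 Eed-/- astrocyte libraries were at 0 like the controls.

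**Figure D2:**
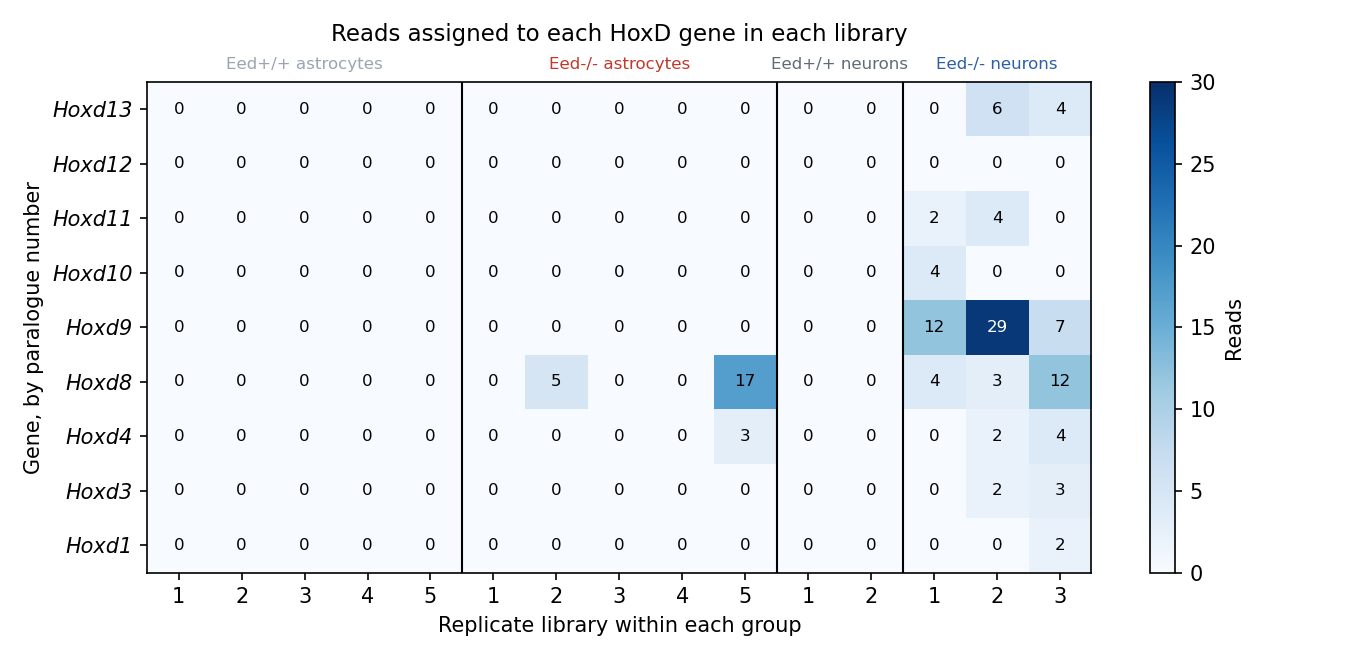
Reads assigned to each HoxD gene (rows, by paralogue number) in each of the 15 libraries (columns, by group and replicate), with darker blue for more reads. All Eed+/+ columns are 0, the 3 Eed-/- neuron columns hold reads of 8 genes, and the Eed-/- astrocyte columns hold reads of Hoxd8 in replicates 2 and 5 and of Hoxd4 in replicate 5.

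Scaled by library (TMM-scaled CPM), the HoxD sum was 20.2 ± 3.18 (SD, n = 3) in Eed-/- neurons, with 17.1, 23.5 and 20.1 CPM in the 3 replicates. In Eed-/- astrocytes it was 4.69 ± 8.76 (SD, n = 5), with 3.30 CPM in replicate 2 and 20.1 CPM in replicate 5. Replicate 5 of the astrocytes was thus within the range of the Eed-/- neurons, and the other 4 were below it. Without replicate 5 the astrocyte mean was 0.825 CPM. Fewer cells with HoxD transcripts and fewer transcripts per cell cannot be told apart in bulk libraries.

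Depth set what the zeros could show. At the pooled rate of the Eed-/- neurons (20.3 CPM), the Eed+/+ neuron libraries would have held 36.2 and 6.97 HoxD reads, and both held 0. At the pooled rate of the Eed-/- astrocytes (6.44 CPM), the 5 Eed+/+ astrocyte libraries would have held between 3.08 and 20.5 reads each, 63.0 in all, and held 0. Without Eed-/- astrocyte replicate 5, which held 20 of the 25 reads, the pooled rate was 1.73 CPM, and the Eed+/+ astrocytes would have held 16.9 reads in all, from 0.827 to 5.50 each. At the rate of 6.44 CPM, the 3 Eed-/- astrocyte libraries at 0 would have held 2.47, 2.60 and 1.36 reads. Each is under the 3 reads that a count of 0 allows, so a single one of them did not show a lower level. Together these 3 libraries, the Eed-/- astrocytes outside the limits, would have held 6.43 reads at that rate. The rate of 6.44 CPM rests mostly on replicate 5, and at 1.73 CPM they would have held fewer. Replicate 2 had 5 reads where 12.2 would match the rate of 6.44 CPM, and replicate 5 had 20 where 6.40 would.

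Against a floor of 3 reads over the whole Eed+/+ group, the HoxD sum was at least 14.4-fold higher in Eed-/- neurons and at least 21.0-fold higher in Eed-/- astrocytes. Without Eed+/+ neuron replicate 1, the deeper of the 2 control libraries, the neuron bound fell to 2.32-fold, and without Eed-/- astrocyte replicate 5 the astrocyte bound fell to 5.64-fold. Over the 10 libraries within the limits the bounds were 12.1-fold in neurons and 26.9-fold in astrocytes. These bounds, and the others given below, allow only for counting error in the zeros of the lower group. The rate of the higher group was taken as observed, and the spread between libraries was left out. Amplified reads are also not independent molecules.

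**Figure D3:**
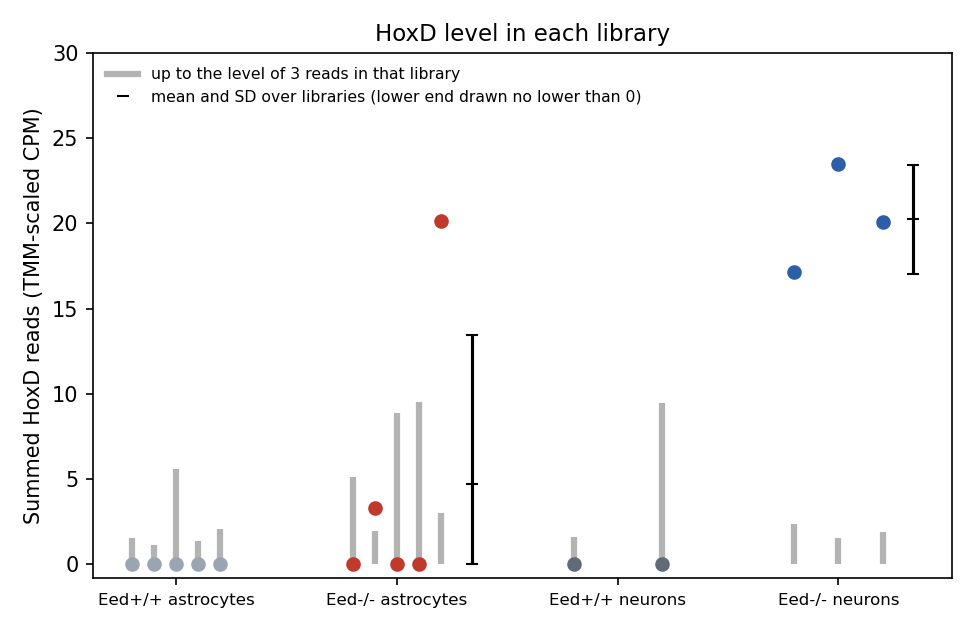
Summed HoxD level (y axis, TMM-scaled CPM) in each library, by group (x axis), with 1 point per library, a grey bar up to the level that 3 reads would give in it, and the mean with SD for the Eed-/- groups. The 3 Eed-/- neuron libraries lie between 17.1 and 23.5 CPM, Eed-/- astrocyte replicate 5 lies at 20.1, and all Eed+/+ libraries lie at 0.

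To read the members against all genes, genes at 0 in the controls were counted by the number of Eed-/- libraries with a read. Because the HoxD genes were at 0 in every control, they could enter these counts through the Eed-/- libraries alone, and the counts are a description. A read in at least 2 Eed-/- neuron libraries, with 0 in both controls, was found for 6.66% of the 23689 genes with a read in neurons and for 6 HoxD genes (Hoxd3, Hoxd4, Hoxd8, Hoxd9, Hoxd11 and Hoxd13). Reads in all 3 were found for 1.98% of genes and for 2 HoxD genes, Hoxd8 and Hoxd9. In astrocytes, reads in at least 2 Eed-/- libraries with 0 in all 5 controls were found for 0.928% of the 24464 genes with a read and for 1 HoxD gene, Hoxd8. Over both cell types, 1.94% of the 28042 genes with a read had 0 in all 7 controls and a read in at least 1 Eed-/- library of each cell type, among them Hoxd8 and Hoxd4. These shares are over genes of all levels.

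Hoxd9, a gene of the trunk and limbs, had the highest level per length of the cluster in Eed-/- neurons. Its reads were 12, 29 and 7 in the 3 Eed-/- neuron libraries and 0 in all other libraries, Eed-/- astrocytes included. Its level was 9.52 ± 5.21 CPM (SD, n = 3), or 4.55 pooled reads per kb of unshared exon per 1000000 gene reads. Against 0 reads in Eed+/+ neurons it was at least 6.91-fold higher. That bound fell to 1.11-fold without Eed+/+ neuron replicate 1.

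Hoxd9 was the only member that passed the filter on low counts in neurons. It did so through the Eed-/- libraries alone, so its p is given as a description. edgeR's quasi-likelihood test gave a p of 0.00821 and, after Benjamini-Hochberg adjustment over 11862 genes, 0.644. Its fitted log2 difference (Eed-/- minus Eed+/+) was 6.75 with an SE of 2.15 over 3 and 2 libraries, a value that depends on the prior count because one group was at 0. Over the alternatives that tested Hoxd9 with both Eed+/+ libraries kept, its adjusted p was lowest at 0.256 (DESeq2) and stayed above 0.05 in each. With a single Eed+/+ library, replicate 2 or replicate 1, its edgeR log2 difference was 6.64 or 7.01. Hoxd9 was not tested with a mean count above 10 or without Eed-/- neuron replicate 1 or 2. In the neuron comparison edgeR called 0 of 11862 genes (0% of those tested), with 862 at an unadjusted p under 0.05, and DESeq2 called 26, of which none was a HoxD gene.

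Hoxd8, which like Hoxd9 lies in the central part of the cluster, had reads in both cell types, as Hoxd4 did, and in more libraries (5) than any other member. It had 4, 3 and 12 reads in Eed-/- neurons, 5 in Eed-/- astrocyte replicate 2 and 17 in replicate 5, and 0 elsewhere. Its level was 4.06 ± 3.11 CPM (SD, n = 3) in Eed-/- neurons and 4.08 ± 7.43 CPM (SD, n = 5) in Eed-/- astrocytes. Per length it was at 1.40 and 2.06 pooled reads per kb of unshared exon per 1000000 gene reads in the neurons and the astrocytes. Without Eed-/- astrocyte replicate 5, which held 17 of the 22 reads, the astrocyte level was 0.631 per kb, and 0.825 ± 1.65 CPM (SD, n = 4), so that the order of the cell types turned. It was at least 2.73-fold higher than in Eed+/+ neurons and at least 18.5-fold higher than in Eed+/+ astrocytes. Without Eed+/+ neuron replicate 1 the neuron reads gave no bound above 1, and without Eed-/- astrocyte replicate 5 the astrocyte bound was 5.64-fold.

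The astrocyte test included no HoxD gene after the filter on low counts, and edgeR called 0 of 8956 genes (0%), with 108 at an unadjusted p under 0.05, while DESeq2 called 1. With no filter, Hoxd8 had an edgeR p of 0.00967 and an adjusted p of 0.386 among 24464 genes, of which 0.0204% were called. In 1 fit over all 15 libraries, Hoxd8 passed the filter through Eed-/- libraries alone. Its edgeR adjusted p in astrocytes there was 0.151, and 0.174 with no filter. These were the 2 fits of the astrocyte comparison with a HoxD gene under 0.2, and no HoxD gene was under 0.05 in any fit that tested one. The libraries of the astrocytes fell into 2 runs of library numbers: Eed-/- replicate 2 was in the first and replicate 5 in the second, and Hoxd8 was at 0 in the Eed+/+ libraries of both.

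The genes 5′ of Hoxd9, which pattern the limb and genital region, had fewer reads. Hoxd13 had 0, 6 and 4 reads in Eed-/- neurons, Hoxd11 had 2, 4 and 0, and Hoxd10 had 4, 0 and 0. None had a read in an astrocyte library. Hoxd13 was at least 1.44-fold higher than in Eed+/+ neurons, a bound that did not stay above 1 without Eed+/+ neuron replicate 1. The reads of Hoxd11 and Hoxd10 were too few to place them above the floor of the Eed+/+ neurons, where 3 reads stand for 1.41 CPM.

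The anterior members were as low. Hoxd4, a gene of the hindbrain and neck, had 0, 2 and 4 reads in Eed-/- neurons and 3 in Eed-/- astrocyte replicate 5. Hoxd3 had 0, 2 and 3 reads in Eed-/- neurons, and Hoxd1 had 2 reads in replicate 3 alone. None of these genes exceeded the floor of the Eed+/+ neurons. Hoxd3 and Hoxd4 share exons with each other and with antisense transcripts. Of their exon bases, 37.2% and 47.7% were free of other genes, and reads over shared bases were set aside as ambiguous by the counting, so both are uncertain and their counts are minima. In neurons with no filter on low counts, the edgeR adjusted p was 0.33 for Hoxd9 and 0.778 for each of the other 7 HoxD genes with reads, against 0.536% of 23689 genes called.

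Per length, the order in Eed-/- neurons was Hoxd9 (4.55 reads per kb per 1000000 gene reads), Hoxd8 (1.40), Hoxd4 (0.865), Hoxd13 (0.816), Hoxd3 (0.651), Hoxd10 (0.474), Hoxd11 (0.324) and Hoxd1 (0.218). Over all exon bases, shared ones included, Hoxd4 was at 0.413, below Hoxd13 (0.816) and Hoxd10 (0.446), and Hoxd3 at 0.242, below Hoxd11 (0.289), so that the order below Hoxd8 depends on this choice. Below Hoxd9 and Hoxd8 each rested on 10 reads or fewer, and their neighbours in the order did not differ beyond the spread of the libraries. The first place was not fixed either: Hoxd9 led in replicates 1 and 2, and Hoxd8 had more reads than Hoxd9 in replicate 3. The reads therefore followed no steady rise or fall from one end of the cluster to the other.

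**Figure D4:**
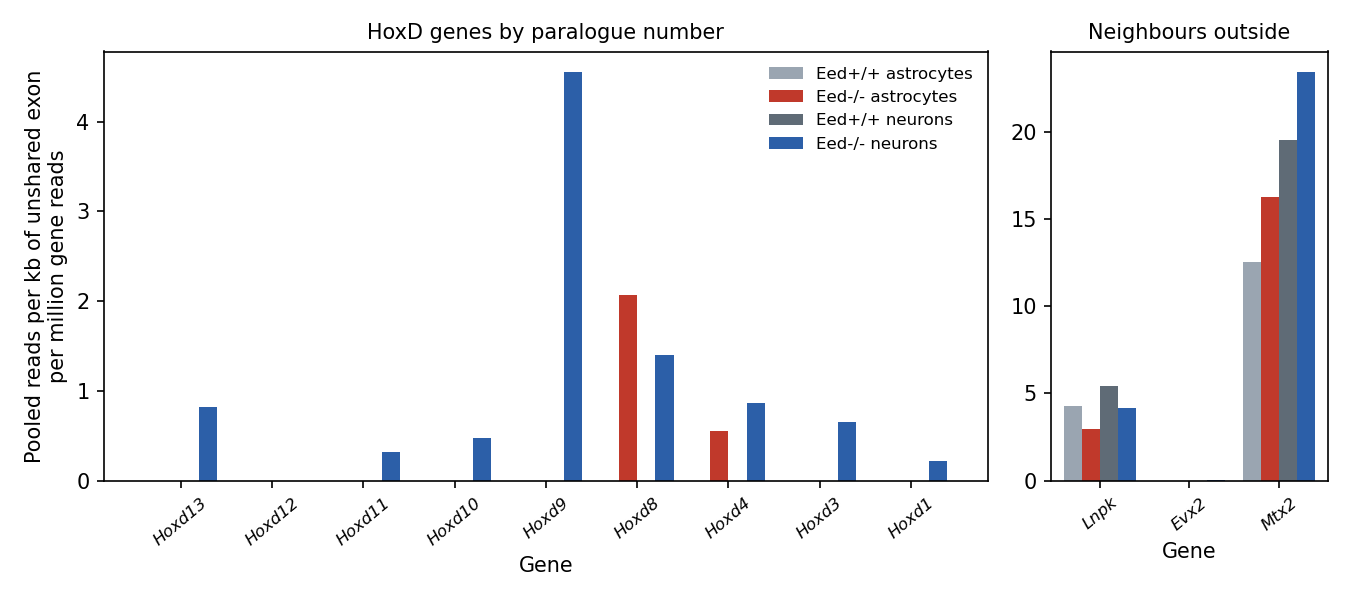
Pooled level per length (y axis, reads per kb of unshared exon per 1000000 gene reads) of the HoxD genes by paralogue number (left) and of neighbours outside the cluster (right, own scale), with 1 bar per group. Eed-/- neurons peak at Hoxd9 (4.55) and Eed-/- astrocytes at Hoxd8 (2.06), while Lnpk and Mtx2 have bars in all 4 groups.

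The genes that flank the cluster differed from it in their controls. Lnpk, a protein of endoplasmic reticulum junctions on the Hoxd13 side, and Mtx2, a mitochondrial import protein on the Hoxd1 side, had reads in every library except Eed-/- astrocyte replicate 4. Lnpk stood at 46.5 ± 22.0 CPM in Eed+/+ and 21.3 ± 17.9 CPM in Eed-/- astrocytes (SD, n = 5 each), and at 58.3 ± 19.8 CPM (SD, n = 2) and 37.4 ± 10.8 CPM (SD, n = 3) in neurons. Mtx2 stood at 48.4 ± 35.6 and 66.7 ± 63.6 CPM in astrocytes and at 46.1 ± 47.3 and 88.8 ± 14.4 CPM in neurons, in the same order. The ranges of the genotypes overlapped for both genes in both cell types.

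Evx2, a homeobox gene next to Hoxd13, had 1 read in all, in Eed-/- neuron replicate 3. Hoxd3os1, an antisense gene that spans Hoxd8 and the start of Hoxd3, was another RNA of the cluster seen in mutants alone: it had 13, 8 and 2 reads in Eed-/- neurons, 12 in Eed-/- astrocyte replicate 5 and 0 in the other libraries. It was at least 3.31-fold higher in Eed-/- than in Eed+/+ neurons and at least 10.1-fold higher in Eed-/- than in Eed+/+ astrocytes. The neuron bound did not stay above 1 without Eed+/+ neuron replicate 1, and without Eed-/- astrocyte replicate 5, which held all 12 reads, there was no astrocyte bound. Haglr, an antisense RNA that starts beside Hoxd1, had 4 reads in Eed-/- neuron replicate 3. Counting did not use strand, so reads of antisense partners cannot be told apart where they overlap.

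Of the 11 flanking and antisense genes listed, 7 could be tested in astrocytes and 8 in neurons, and edgeR called 0 in either direction. Their median log2 difference was -0.39 in astrocytes, where that of all genes was -0.54, and 0.10 in neurons, where it was 0.15. The smallest p among genes with a negative difference belonged to Lnpk (log2 difference -1.07, SE 1.57, adjusted p = 1 in astrocytes, and -0.73, SE 0.705, adjusted p = 0.782 in neurons) and among those with a positive one to Mtx2 (0.55, SE 1.47, adjusted p = 1, and 0.81, SE 0.747, adjusted p = 0.774). Without Eed+/+ neuron replicate 1, which leaves 1 control library, Mtx2 in neurons was at 2.68 with an edgeR adjusted p of 0.0413.

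Eed itself, the targeted gene, had 88, 204, 2, 85 and 41 reads in Eed+/+ astrocytes and 0, 26, 0, 0 and 14 in Eed-/- astrocytes. In neurons it had 121 and 26 reads in Eed+/+ and 21, 74 and 53 in Eed-/- libraries. Its level was 38.5 ± 26.2 against 6.25 ± 8.63 CPM in astrocytes and 73.2 ± 12.2 against 29.1 ± 11.3 CPM in neurons. All neuron libraries of Eed-/- lay below those of Eed+/+, whereas the astrocyte groups overlapped through Eed+/+ replicate 3. The counts cover the whole gene and do not tell reads of the deleted part from the rest. edgeR gave a log2 difference of -2.48 (SE 1.68, adjusted p = 1) in astrocytes and -1.42 (SE 0.705, adjusted p = 0.694) in neurons. The 2 Eed-/- astrocyte libraries with HoxD reads were the 2 with Eed reads, and the 3 at 0 for HoxD were also at 0 for Eed.

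Other PRC2 genes and the Hox cofactors were not called. Of 11 PRC2 genes, 8 were tested in astrocytes and 11 in neurons, with 0 called and medians of -1.07 and -0.87. In astrocytes the smallest p among negative differences was that of Eed, and among positive ones that of Rbbp7, a histone-binding subunit (0.83, SE 1.28, adjusted p = 1). In neurons they were those of Phf1, a PRC2 accessory protein (-2.14, SE 0.893, adjusted p = 0.67), and Rbbp4, another histone-binding subunit (1.27, SE 0.744, adjusted p = 0.739). Of the 9 Pbx, Meis and Pknox genes, homeodomain proteins that bind DNA together with Hox proteins, 7 were tested in astrocytes and 9 in neurons, with 0 called. Their medians were -0.35 and -0.79, and the smallest p values of negative and positive differences belonged to Pbx4 (-1.97, SE 1.57, adjusted p = 1) and Pknox1 (1.06, SE 1.59, adjusted p = 1) in astrocytes and to Pbx2 (-2.70, SE 1.06, adjusted p = 0.668) and Pknox2 (0.71, SE 0.753, adjusted p = 0.786) in neurons.

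Within Eed-/- cells, no member was called between the cell types. Hoxd9 was at 0 in all 5 Eed-/- astrocyte libraries and had reads in all 3 Eed-/- neuron libraries. It was at least 12.6-fold higher in the neurons (6.46-fold without Eed-/- astrocyte replicate 2). Hoxd9 passed the filter of the fit over 15 libraries through the Eed-/- neurons alone. There its log2 difference, astrocytes minus neurons, was -6.65 (SE 2.30), with an edgeR p of 0.00381. The adjusted p was 0.326 (0.108 without Eed-/- astrocyte replicate 5), where 0.0598% of 13367 genes were called. Hoxd8 gave 0.11 (SE 1.76, adjusted p = 0.999), an error that leaves room for several-fold differences in either direction. The interaction of genotype with cell type gave no usable value for a HoxD gene, because both Eed+/+ groups were at 0 reads.

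The Eed-/- astrocyte library with the most HoxD reads also differed in its markers. In replicate 5, 12 of 12 neuron markers had reads, summing to 2387 CPM, within the 1729 to 2556 CPM of the Eed-/- neurons and above the 195 to 470 CPM of the other 4 Eed-/- astrocyte libraries. Its 6 interneuron markers summed to 708 CPM, against 0 to 272 CPM in the other 4. Eed+/+ astrocytes with 0 HoxD reads reached like levels, with neuron markers of 2792 and 2041 CPM in replicates 3 and 4. Their interneuron markers ran from 0.687 to 782 CPM over the 5 libraries. Eed+/+ neurons also had 0 HoxD reads, so Eed+/+ astrocytes would be at 0 whatever their level of neuron markers. The 10 astrocyte markers of Eed-/- replicate 5 summed to 11519 CPM, against 1980 to 29625 CPM in the other 4. Replicate 2, with 5 Hoxd8 reads, had 7 of 12 neuron markers at 433 CPM and 29625 CPM of astrocyte markers. Among the Eed-/- astrocytes the 7 oligodendrocyte lineage markers followed the same split as the HoxD reads. They summed to 4379 and 2948 CPM in replicates 2 and 5. In replicates 1, 3 and 4, which lay outside the limits, they summed to 137, 509 and 572 CPM. Eed+/+ astrocytes had 1328 to 5152 CPM of them with 0 HoxD reads. The part of these markers in the HoxD reads was not tested.

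The 3 Eed-/- astrocyte libraries without HoxD reads carried other marker sets. Erythroid markers reached 5789 CPM in replicate 1, 62.1 CPM in replicate 3 and 8024 CPM in replicate 4, and microglia markers 8634, 3357 and 0 CPM. Both lists were at 0 in replicates 2 and 5. Fibroblast markers summed to 3.42, 2041 and 276 CPM in replicates 1, 3 and 4, and to 74.6 and 55.4 CPM in replicates 2 and 5. In neurons the HoxD reads moved with the neuron markers, which summed to 1729, 2556 and 2385 CPM in the Eed-/- libraries and to 1575 and 1300 CPM in the Eed+/+ libraries, with no overlap. All 12 were tested and edgeR called 0, with a median log2 difference of 1.55 against 0.15 over all genes. Their part in the HoxD reads was not tested. Over the Eed-/- neurons erythroid markers were at most 5.62 CPM, microglia markers at most 118 CPM and fibroblast markers at most 42.7 CPM, while oligodendrocyte lineage markers summed to between 2446 and 3807 CPM against 1359 and 2840 CPM in Eed+/+ neurons. Endothelial markers were at most 25.0 CPM in the Eed-/- neurons and 3.18 CPM in the Eed-/- astrocytes.

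HoxD held the smallest share of Hox reads in Eed-/- neurons: 100 reads, or 7.54%, against 257 for HoxA (19.4%), 473 for HoxB (35.7%) and 496 for HoxC (37.4%). In Eed-/- astrocytes HoxD had 25 reads (4.42%) and HoxA 22 (3.89%), against 231 for HoxB (40.8%) and 288 for HoxC (50.9%). Without replicate 5, which held 20 of the 25 HoxD reads, HoxD had 5 reads (1.74%) and HoxA 13 (4.53%). These are shares of reads and were not divided by gene length. Reads came from 8 of 9 HoxD genes in Eed-/- neurons and from 2 of 9 in Eed-/- astrocytes, whereas HoxC had reads from 9 of 9 and 8 of 9. All 4 clusters were at or near 0 in the Eed+/+ libraries. In Eed+/+ astrocytes HoxD had 0 reads, HoxA 2, HoxB 7 and HoxC 1. In Eed+/+ neurons HoxC had 4 and the others had 0.

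**Figure D5:**
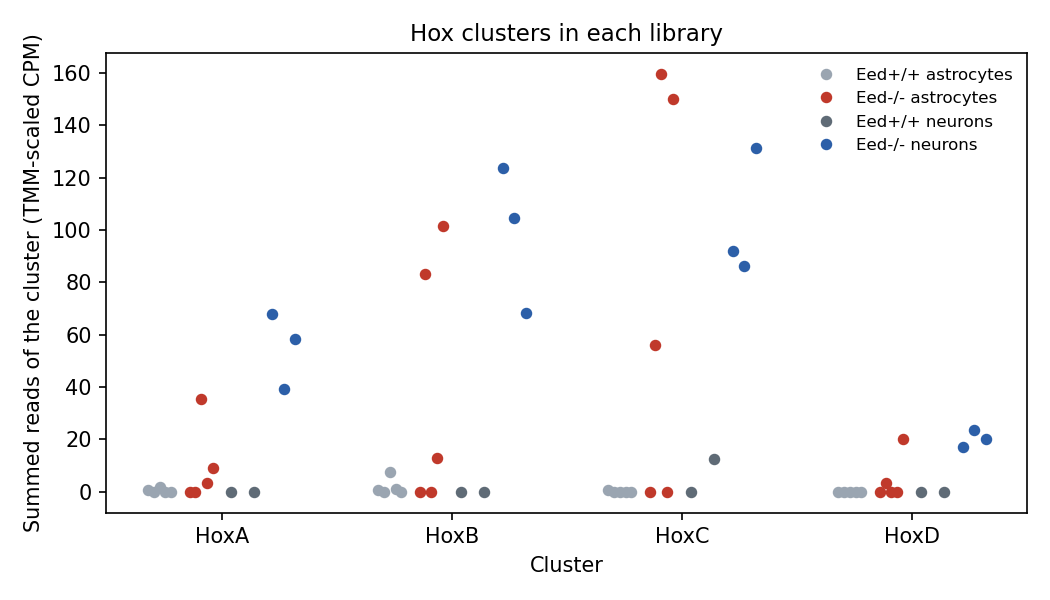
Summed reads of each Hox cluster (x axis) in each library (y axis, TMM-scaled CPM), with 1 point per library, coloured by group. HoxD lies between 17.1 and 23.5 CPM in Eed-/- neurons, below HoxA, HoxB and HoxC in each of these libraries, and at 0 in all Eed+/+ libraries.

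Within each paralogue group, the gene of the other clusters with the most reads is set beside the HoxD gene. In Eed-/- neurons Hoxc9 had 239 reads beside 48 for Hoxd9, Hoxb8 had 74 beside 19 for Hoxd8, and Hoxb13 had 247 beside 10 for Hoxd13. In group 10, Hoxc10 had 80 beside 4 for Hoxd10, in group 11 Hoxc11 had 14 beside 6, and in group 12 Hoxc12 had 5 beside 0. In group 4, Hoxc4 had 41 beside 6. Group 3 was low throughout, with 4 reads of Hoxa3 beside 5 of Hoxd3. In Eed-/- astrocytes Hoxb8 had 101 reads beside 22 of Hoxd8 and Hoxc4 had 48 beside 3 of Hoxd4. There Hoxc9 had 62, Hoxb13 24, Hoxc11 21, Hoxc10 15 and Hoxb3 3, where Hoxd9, Hoxd13, Hoxd11, Hoxd10 and Hoxd3 had 0.

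Across the 15 libraries, the 5 genes whose log2(CPM + 1) followed the HoxD sum most closely, among 17346 with reads in at least 4 libraries, were Hoxc9 (Pearson r = 0.997), Cnpy1 (0.962), Crabp1 (0.957), Hoxb13 (0.955) and Eda2r (0.954). Their reads in the Eed-/- libraries were 301, 123, 617, 271 and 132, against 1, 0, 2, 0 and 3 in the Eed+/+ libraries. Of the 18 other Hox genes with enough reads, 6 were among the first 20. Values of 1 library share its depth, and 10 of the 15 libraries were at 0 for HoxD, so these values rest on the 5 libraries with HoxD reads and are given as a description.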

How the data were processed

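Full-length cDNA libraries of sorted cells were sequenced by the authors, aligned with STAR to mm10 (GRCm38) and counted per gene. No annotation release is stated (not given in the sources used here). Values deposited are raw counts of uniquely aligned reads over 53379 genes, with 4 lines of totals that name no gene and stayed out of library sizes. Per library, reads outside genes were 8.55% to 71.6% and ambiguous reads 0.934% to 5.66% of uniquely aligned reads. First-strand reads made up 46.7% to 52.7%, so the unstranded column was used. Groups came from the sample labels, and files held 0 columns without a sample.

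Identifiers were matched without version to GENCODE M21 (53274 matched, 105 did not). That release differs from the one the authors used, so shared exon bases are approximate. Promoters came from RefSeq (GRCm38.p6, 9 of 9 genes matched). Genotype was tested within each cell type, and cell type and interaction over 15 libraries, with edgeR 4.0.16 (R 4.3.3; TMM, filterByExpr, robust quasi-likelihood, two-sided, Benjamini-Hochberg, threshold 0.05). The method was checked on simulated data. Alternatives were DESeq2 1.42.0, limma-voom 3.58.1 with quality weights, RLE scaling, other filters, libraries within limits and leaving out each library. CPM were TMM-scaled and floors were 3 counts. SE is the log2 difference divided by the square root of F. Because the libraries that the study set aside are not identified by name, all 15 were kept. Named genes were the 9 members, Eed, the antisense RNAs of the cluster and its neighbour Evx2 (named after their reads were seen), the smallest-p gene per direction in each list, the same-group Hox gene with the most reads and the 5 genes most like the HoxD sum. Some results for the same-group genes are not reported here. The members and lists were chosen with earlier results of these data known. Erythroid, microglia and other marker lists were summed per library.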

Additional observations from a re-analysis of the deposited data

Results flagged for a closer look

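In Eed-/- astrocytes, replicate 5 stood apart from the other 4 libraries by Dixon's criterion for 4 sets of values. The 10 sets examined included Eed, Lnpk and Mtx2 in Eed+/+ astrocytes, where this library has no part. Replicate 5 had 17.1 CPM of Hoxd8, 3.02 CPM of Hoxd4, 20.1 CPM of the HoxD sum and 12.1 CPM of Hoxd3os1. The next highest library had 3.30 CPM of Hoxd8 and of the sum, and the other 4 libraries had 0 reads of Hoxd4 and Hoxd3os1. For Hoxd4 and Hoxd3os1 the criterion is met whenever a single library holds all the reads. For Hoxd4, 3 reads in replicates 1, 3 and 4 would stand for 5.14, 8.87 and 9.53 CPM, above the 3.02 CPM of replicate 5, so their zeros do not show a lower level. The 4 sets are not independent, since they share 1 library, and the nominal rate of the criterion, about 1 in 20 groups by chance, is for continuous values and not for counts that are mostly 0. Eed, Lnpk and Mtx2 had no library of this kind in either astrocyte group.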

How the results depend on the processing

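Few alternatives could test a HoxD gene in astrocytes: 5 of 22, against 13 of 16 in neurons and 20 of 20 for cell type in Eed-/- cells, and 0 HoxD genes were called in these. DESeq2 gave no adjusted p for some of them. The mean HoxD difference (Eed-/- minus Eed+/+), whose sign the zeros of the controls fix, was 0.825 to 5.86 CPM in astrocytes and 18.6 to 21.8 CPM in neurons leaving out 1 library at a time, and 11.7 CPM for astrocytes within the limits. The number of genes called varied. In astrocytes it was 0 as reported, and 5 with no filter, 24 with a mean count above 10, 1 with DESeq2, 46 in 1 fit over 15 libraries and 0 to 1 leaving out a library. In neurons it was 0, and 127 with no filter, 26 with DESeq2, 3 in 1 fit over 15 libraries, 1 within the limits and 0 to 2601 leaving out a library. The 2601 came without Eed+/+ neuron replicate 1, where the lone control is assumed to vary like the other group. The 3 fits with 2 settings changed (no filter together with another setting) were chosen after seeing the data and called 153, 8 and 14 genes in astrocytes (1 fit over 15 libraries, DESeq2, within the limits) and 1, 54 and 7 in neurons. For the interaction the count was 7, and 21 with RLE, 2 with no filter, 0 within the limits, 13 at 0.2 and 1 to 12 leaving out a library. For cell type in Eed+/+ cells it was 1, and 6, 2, 0 and 5 in the same order, 8 with DESeq2 and 0 to 5 leaving out a library. For cell type in Eed-/- cells it was 8, and 3 with no filter, 0 within the limits, 15 at 0.2 and 0 to 26 leaving out a library. The cause of these differences was not tested. Correlations of same-numbered astrocyte and neuron libraries within a genotype ran from -0.0469 to 0.117. They rest on deviations from the means of few libraries and cannot show whether such libraries shared an animal. The fits without a replicate block treated all libraries as independent. With a replicate block the counts were 2 (interaction), 0 (Eed+/+) and 5 (Eed-/-), 0 in both genotype comparisons, and the Hoxd9 difference in neurons was 6.81. Mtx2 in astrocytes turned to -0.35 within the limits, -0.38 there with no filter and -0.20 without Eed-/- replicate 1 (-0.20 to 1.17 leaving out a library). Hoxd8 between cell types turned to -1.69 with the replicate block, -0.06 without Eed-/- neuron replicate 1 and -0.28 without replicate 2 (-0.28 to 0.43 over the 13 of 15 such fits in which it passed the filter). It did not pass without Eed-/- astrocyte replicate 5 or Eed-/- neuron replicate 3, which held most of its reads, and was 1.31 within the limits against 0.11. Mtx2 in neurons gained a call (2.68) without Eed+/+ neuron replicate 1. Depth limits the HoxD values: 3 reads stand for 1.41 CPM over the Eed+/+ neurons and for 0.307 CPM over the Eed+/+ astrocytes.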

Other observations

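The library with conflicting cell type labels had 0 HoxD reads among 221456 gene reads, 0 reads of Eed, Lnpk and Mtx2, and 17.7% uniquely aligned reads.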
